A study of Mus musculus with 7 samples.

Results

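MOL5/6b is 1 of 4 subclusters of the mature oligodendrocyte class MOL5/6 in a single-cell RNA-seq survey of the adult mouse cortex, in which dorsally and ventrally derived oligodendrocyte lineage cells (OLCs) were compared. Its members were the cells named MOL5/6b in the deposited annotation, 2225 of 9291 cells kept by the authors. They came from 3 libraries at P90, each 1 droplet library of sorted cells, of mice of both sexes on a mixed C57BL/6 and B6CBA background. The sample labels name the tissue as motor and cingulate cortex, whereas the authors' methods give neocortex for these cells. Control dOLCs were the TdTom+ cells of Emx1-Cre:Sox10-GFP-TdTom mice, in which Cre driven by the dorsal forebrain gene Emx1 switches the Sox10 reporter from GFP to TdTom, and they gave 1947 of the members. Control vOLCs were the GFP+ cells of the same genotype and gave 236. Ectopic vOLCs were the GFP+ cells of mice that also carried Sox10-DTA, in which diphtheria toxin A removes OLCs of the Emx1 lineage, and they gave 42. The mice behind a library cannot be told apart in the files, so each condition is 1 sample and no difference between conditions has a replicate check. All intervals below are 95% intervals and cover counting error only.

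Oligodendrocytes wrap axons in myelin, a stack of lipid-rich membrane held together by proteins such as Mbp, and pass through precursor (OPC), committed, newly formed and myelin-forming stages before they become mature (MOL). Mature oligodendrocytes fall into transcriptional classes that share the myelin genes and differ in a smaller set of others. MOL5/6 cells are recognised by Ptgds, the prostaglandin D synthase, by the cytokine Il33, by the carbonic anhydrase Car2 and by the glutamate receptor Grm3, whereas MOL2 cells are recognised by the protease Klk6 and by Hopx.

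The annotated MOL5/6b cells carried the MOL5/6 genes in each library. At equal depth, with each cell thinned to 1000 UMIs (the molecular tags counted in this assay) and levels given as CPM, UMIs scaled to a common total, Ptgds stood at 30422 CPM in the control dOLCs, at 35377 in the control vOLCs and at 38476 in the ectopic vOLCs. The OPCs of these libraries, a cell type that should lack Ptgds, had 5470.1, 3595 and 3242 CPM, and 99.4% of the control dOLC OPCs held a Ptgds UMI, so only its level separates the cell types. Il33 was seen in 46.8% of the thinned MOL5/6b cells of the control dOLCs and in 13.2% of their OPCs, at median depths before thinning of 2844 and 2795 UMIs. Grm3 was seen in 11.3% of these MOL5/6b cells and in 1.64% of the OPCs. The MOL2 gene Klk6 was at background in MOL5/6b, seen in 2.21% of its cells, in 2.11% of the OPCs and in 23.5% of the cells of cluster MOL2a. The precursor gene Pdgfra was seen in 1.75% of MOL5/6b cells and in 73.5% of the OPCs.

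The same 4 genes did not single out MOL5/6b. In the control dOLCs the log2 ratio of MOL5/6b to the other MOL5/6 cells together was 0.00 (-0.02 to 0.02) for Ptgds, -0.06 (-0.17 to 0.06) for Il33, -0.23 (-0.27 to -0.19) for Car2 and 0.27 (-0.01 to 0.56) for Grm3. Ptgds stood at 39243 CPM in MOL5/6a, 34028 in MOL5/6d and 25032 in MOL5/6c, with MOL5/6b between the last 2. In the control vOLCs the ratio was -0.33 (-0.37 to -0.29) for Ptgds, -0.50 (-0.59 to -0.40) for Car2 and -0.23 (-0.55 to 0.08) for Il33, and in the ectopic vOLCs 0.08 (0.00 to 0.15), -0.49 (-0.70 to -0.29) and -0.73 (-1.34 to -0.19). Grm3 was higher in the ectopic MOL5/6b cells at equal depth, at 214 CPM from 9 thinned UMIs against 75.6, 47.6 and 62.1 CPM in MOL5/6a, MOL5/6c and MOL5/6d, a ratio of 1.65 (0.49 to 2.62). This rests on a single draw of UMIs. Before thinning Grm3 was seen in 31.0% of these cells and in 28.0%, 30.2% and 36.7% of the others, which were deeper. At full depth 0 of the 4 genes were at least 1.5-fold higher in ectopic MOL5/6b than in MOL5/6b of either control library. Nor did the 4 genes set the class apart from every other cluster of the control dOLCs. MOL1 had 28186 CPM of Ptgds, 533 of Il33, 4855 of Car2 and 112 of Grm3, and MFOLb had 24953, 632, 4858 and 179 CPM, close to the 30422, 679, 5006 and 121 CPM of MOL5/6b. Car2 was higher in MOL2a (5635 CPM) and MOL2b (6472 CPM), whereas Ptgds was lower there (11867 and 8911 CPM). MOL5/6b is therefore named here as in the deposited annotation and described below by the genes in which it differed from MOL5/6a, MOL5/6c and MOL5/6d. Since the clusters were made from these same counts, differences between clusters are a description and carry no test.

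MOL5/6b had the fewest UMIs and the highest mitochondrial share of the 4 subclusters in each library. The median MOL5/6b cell held 2844 UMIs in the control dOLCs, 3970.5 in the control vOLCs and 3059 in the ectopic vOLCs, against 4703, 5867 and 5546.5 over the other MOL5/6 cells. Mitochondrial counts, which reach 14.99% in the kept cells, made up a median of 8.67%, 8.23% and 10.5% of a MOL5/6b cell, against 5.20%, 6.20% and 6.32% in the others. Over the libraries and MOL5/6 subclusters, 12 neuron markers summed to 0 to 75.5 CPM, 12 microglia markers to 15.9 to 66.1 CPM and 12 endothelial and mural markers to 0 to 28.6 CPM. The 12 astrocyte markers summed to 472 CPM in MOL5/6b of the control dOLCs, 458 in that of the control vOLCs and 357 in that of the ectopic vOLCs, within a range of 229 to 472 CPM. The fibroblast and choroid plexus list reached 2595 CPM in MOL5/6b of the control dOLCs, from 3 of its 12 genes, chiefly Enpp2, which oligodendrocytes also express. Few cell barcodes were shared, 9 between the control libraries, 24 between control dOLCs and ectopic vOLCs and 6 between control vOLCs and ectopic vOLCs, and these included 15, 2 and 0 MOL5/6b cells of the control dOLCs, control vOLCs and ectopic vOLCs.

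MOL5/6b was the most numerous MOL5/6 subcluster of the control dOLCs and scarce in the ectopic vOLCs. It made up 51.5% (49.9 to 53.2%, 1947 of 3777 cells) of the MOL5/6 cells of the control dOLCs, 42.1% (37.9 to 46.3%, 236 of 561 cells) of those of the control vOLCs and 2.28% (1.65 to 3.07%, 42 of 1842 cells) of those of the ectopic vOLCs. In the control vOLCs MOL5/6a was as frequent, with 237 cells against 236. The ectopic MOL5/6 cells were instead mostly MOL5/6a, with 900 cells, and MOL5/6d, with 837, and MOL5/6c had 63. The order of the 2 control libraries turned in a fixed depth range. Among MOL5/6 cells with 3000 to 5000 UMIs MOL5/6b made up 46.7% (44.2 to 49.2%) in the control dOLCs, 66.7% (60.1 to 72.8%) in the control vOLCs and 2.95% (1.81 to 4.51%) in the ectopic vOLCs. This range kept 150 MOL5/6b cells of the control vOLCs, but 65 of MOL5/6a, 10 of MOL5/6c and 0 of MOL5/6d. The median cells of the latter subclusters were deeper, at 5584, 7099 and 7576 UMIs, so the range takes out more of them. With the mitochondrial limit lowered to 10% MOL5/6b made up 27.4%, 20.7% and 0.623% of all kept cells, against 33.5%, 25.5% and 1.64% without that limit. The ectopic vOLCs were lowest by each of these shares. Depth moved with these shares, at a median of 3489.5 UMIs per kept cell in the control dOLCs, 5022 in the control vOLCs and 5318.5 in the ectopic vOLCs. The sort gate also differed, TdTom+ in the first and GFP+ in the others.

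**Figure D1:**
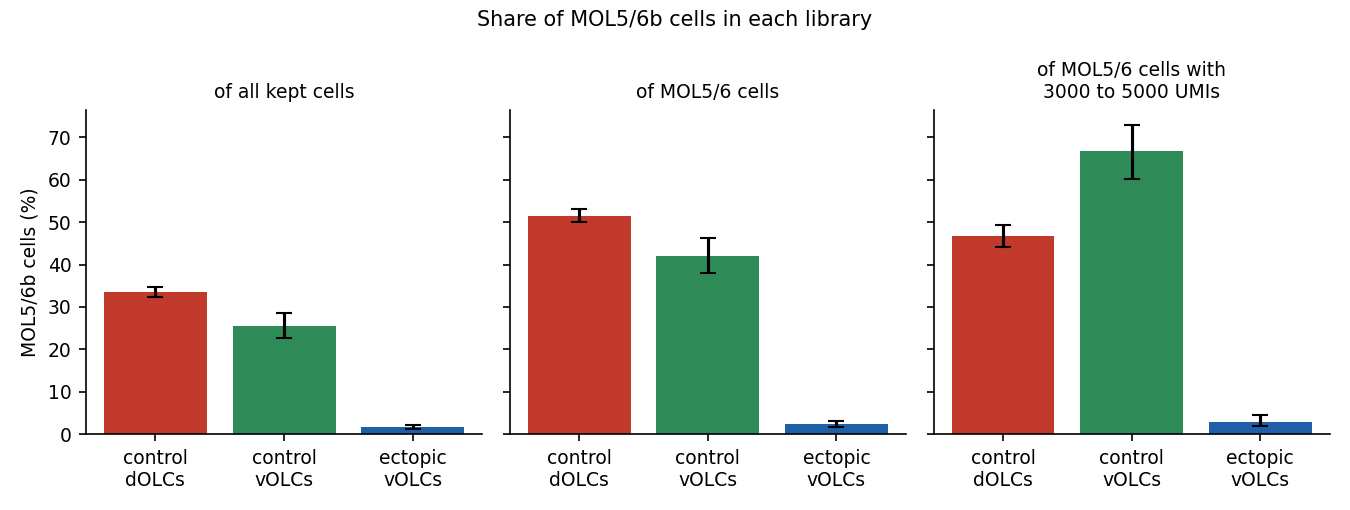
Bars give MOL5/6b cells as a percentage of all kept cells (left), of MOL5/6 cells (middle) and of MOL5/6 cells with 3000 to 5000 UMIs (right) in each library, with exact binomial 95% intervals. The ectopic vOLCs lie lowest in each panel, and the order of the control libraries turns between the middle and the right one. The depth range on the right takes out most of the deeper MOL5/6a, MOL5/6c and MOL5/6d cells of the control vOLCs.

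By the genes for cytoplasmic ribosomal proteins, the protein parts of the ribosome, MOL5/6b paired with MOL5/6a and stood apart from MOL5/6c and MOL5/6d. At equal depth the 86 genes took 3.95% of the UMIs of MOL5/6b in the control dOLCs and 3.62% of those of MOL5/6a, but 6.78% in MOL5/6c and 7.12% in MOL5/6d. MOL5/6b had 3.79% in the control vOLCs, where the others had 3.76%, 6.69% and 7.15%. In the ectopic vOLCs it had 3.47%, against 3.30%, 6.80% and 7.21%. The cells hardly overlapped across this divide. Of the 1947 MOL5/6b cells of the control dOLCs, 5 lay above the median MOL5/6c cell and 2 above the median MOL5/6d cell, whereas 66.1% lay above the median MOL5/6a cell. Of the 42 ectopic cells 0 lay above the median MOL5/6c or MOL5/6d cell. At like depth, in control dOLCs of 3000 to 5000 UMIs, the share was 3.82% in MOL5/6b, 3.61% in MOL5/6a, 7.01% in MOL5/6c and 7.54% in MOL5/6d. The 2 levels also occurred outside MOL5/6 in the control dOLCs, with 3.34% for MOL2a and 6.43% for MOL2b.

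By the 13 genes for mitochondrially encoded proteins, which are subunits of the respiratory chain and the ATP synthase, MOL5/6b stood above the other 3 subclusters. They took 8.94% of its UMIs in the control dOLCs, against 6.86% in MOL5/6a, 6.01% in MOL5/6c and 4.15% in MOL5/6d. MOL5/6b and MOL5/6a had 8.78% and 6.73% in the control vOLCs and 10.6% and 8.89% in the ectopic vOLCs. Outside MOL5/6, MOL1 was close, with 8.27% in the control dOLCs and 9.03% in the control vOLCs, above MOL5/6b of that library, and with 6.98% in the ectopic vOLCs. Depth moved with the mitochondrial share. It was 10.4% in the third of control dOLC MOL5/6b cells with the fewest UMIs and 7.72% in the third with the most, and at 3000 to 5000 UMIs MOL5/6b had 7.81% against 6.77% in MOL5/6a. The 91 nuclear genes for respiratory chain subunits, whose proteins join the same complexes, divided the subclusters as the ribosomal genes did. They took 1.63% of the UMIs of MOL5/6b in the control dOLCs, 1.78% of those of MOL5/6a, 2.19% of MOL5/6c and 2.47% of MOL5/6d.

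**Figure D2:**
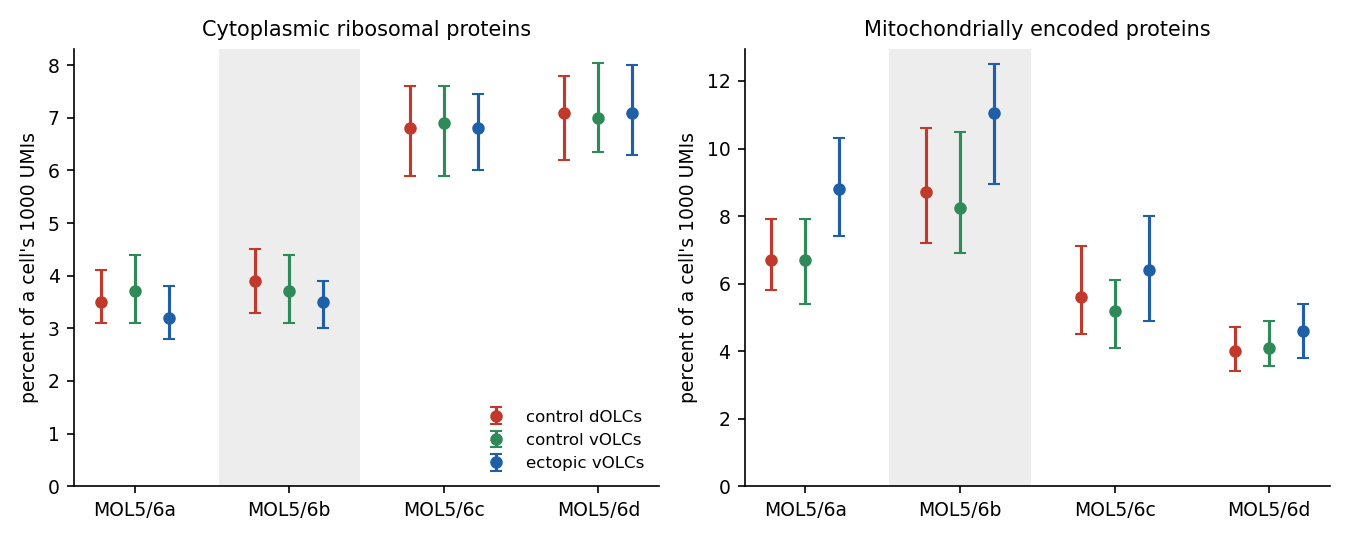
Points are the median cell and bars the quartiles of the percentage of a cell's 1000 UMIs in cytoplasmic ribosomal protein genes (left) and mitochondrially encoded protein genes (right), by subcluster and library, with MOL5/6b shaded. MOL5/6b lies beside MOL5/6a for the first, at medians of 3.90% and 3.50% in the control dOLCs, and above the other subclusters for the second.

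Gene by gene, 1504 genes passed the filter in the control dOLCs, of which 1.33% were at least 1.5-fold higher in MOL5/6b than in the other MOL5/6 cells together and 11.4% at least 1.5-fold lower, with a median log2 ratio of -0.13. Of the ribosomal genes 82 passed, 63 were lower and 0 higher, with a median of -0.74. Of the mitochondrially encoded genes 12 passed and 11 were higher, with a median of 0.67. Their summed ratio was smaller in cells of like depth and under a lower mitochondrial limit, as given in the closing section. Against MOL5/6a 10.6% of 1498 genes were higher and 9.81% lower, and the ribosomal median was 0.14, with 0 of 81 lower. Against MOL5/6c 2.94% of 1532 genes were higher and 14% lower, and 66 of 82 ribosomal genes were lower (median -0.84). Against MOL5/6d 9.46% of 1606 genes were higher and 25.3% lower, and 71 of 82 ribosomal genes were lower (median -0.94). The ribosomal genes were thus lower far more often than genes in general against MOL5/6c and MOL5/6d, and not against MOL5/6a.

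The same divide was found within each ventrally derived library. In the control vOLCs 8.61% of 1533 genes were higher and 9.52% lower against the other MOL5/6 cells together, and 11 of 82 ribosomal genes were lower. Against MOL5/6a alone the background was 10.5% higher and 8.86% lower, with 1 of 81 ribosomal genes lower (median -0.01). Against MOL5/6c it was 14.2% and 18.1%, with 51 of 78 lower (median -0.82), and against MOL5/6d 19.5% and 27.5%, with 61 of 76 lower (median -0.97). In the ectopic vOLCs 18.3% of 1548 genes were higher and 27.3% lower against the other MOL5/6 cells together, and 50 of 82 ribosomal genes were lower. Against MOL5/6a alone the background was 19.3% higher and 19.9% lower, with 6 of 80 ribosomal genes lower (median 0.07). Against MOL5/6c it was 12.3% and 34.1%, with 49 of 62 lower (median -1.09), and against MOL5/6d 17.3% and 38.2%, with 70 of 82 lower (median -1.21). The sum over the other MOL5/6 cells depends on their mix, which was mostly MOL5/6a in the control vOLCs, so the ratios to single subclusters are the closer comparison between libraries.

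Ribosomal protein genes often start transcription inside a run of pyrimidines (C or T), which in the RNA forms the tract through which their translation is regulated. The bases around the start are shown for the 2 ribosomal genes with the lowest ratio in the control dOLCs that hold at least 7 pyrimidines in a row, on the gene's own strand, within 5 bases of the RefSeq start, and for the 2 lowest without such a run. Only runs that lie wholly within the bases shown were used for this choice, and some genes were left out of it. Each line runs from 15 bases before the start to 15 bases after it (RefSeq, GRCm38.p6), with the run in capitals.
Rps24: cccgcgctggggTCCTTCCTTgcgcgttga
Rpl35: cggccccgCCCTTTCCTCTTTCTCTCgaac
Rps12: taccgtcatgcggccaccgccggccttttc
Rpl26: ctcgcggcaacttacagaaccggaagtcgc
These bases lie at chr14:24490663-24490692 (plus strand) for Rps24, chr2:39005117-39005146 (minus strand) for Rpl35, chr10:23787195-23787224 (minus strand) for Rps12 and chr11:68901551-68901580 (plus strand) for Rpl26. The log2 ratios of MOL5/6b to the other MOL5/6 cells were -1.08, -0.97, -1.18 and -1.11 in the same order. The Rps12 bases end in 7 pyrimidines in a row. These begin more than 5 bases after the RefSeq start and were not counted as a run. Of the 86 ribosomal genes 65 matched a start by symbol, and 41.5% of these held a run, against 13.5% of all 27025 starts. The median ratio was -0.71 over 26 ribosomal genes with a run and -0.78 over 35 without one. Both kinds were thus low against the other MOL5/6 cells together. Against MOL5/6a alone the median of all ribosomal genes that passed was 0.14.

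The genes furthest above the other MOL5/6 cells were mostly mitochondrial. Those with the highest ratio in the control dOLCs, and the same direction against each other subcluster and in the control vOLCs, were Man2a2, Aldoc, mt-Nd1, mt-Atp8, mt-Nd3, Slco3a1, mt-Atp6, mt-Co3, mt-Cytb and mt-Nd2. Man2a2, a Golgi mannosidase that trims N-glycans, had 119 CPM in MOL5/6b and 66.1, 77.6 and 38.7 CPM in MOL5/6a, MOL5/6c and MOL5/6d. Aldoc, the brain aldolase of glycolysis and a common astrocyte marker, had 155 CPM in MOL5/6b and 93.1, 100.2 and 65.0 CPM in MOL5/6a, MOL5/6c and MOL5/6d. MOL5/6b of the control dOLCs also had the highest sum of astrocyte markers, whose part in the Aldoc level was not tested. Slco3a1, an organic anion transporter, had 166 CPM in MOL5/6b and 102, 107 and 89.6 CPM in MOL5/6a, MOL5/6c and MOL5/6d. These 3 genes passed the filter through MOL5/6b alone, with a UMI in 11.1% of MOL5/6b cells and 5.96% of the others for Man2a2, in 14.2% of MOL5/6b cells and 8.58% of the others for Aldoc and in 14.8% of MOL5/6b cells and 9.23% of the others for Slco3a1, and so had to be higher there. The direction in the control vOLCs was part of the choice for all 10 genes and lends no support. The complex I subunit mt-Nd1 had 9418 CPM in MOL5/6b and 7141, 5922 and 3880.5 CPM in MOL5/6a, MOL5/6c and MOL5/6d, with ratios of 0.77 (0.74 to 0.81) in the control dOLCs, 0.52 (0.43 to 0.61) in the control vOLCs and 0.71 (0.57 to 0.84) in the ectopic vOLCs.

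The lowest by the same rule were Rpl26, Rpl10, Gm9843, Rpl22, Rpl17, Anapc13, Rps25, Ndufab1, Fkbp3 and Rps3, of which 6 encode ribosomal proteins. Rpl26 had 238 CPM in MOL5/6b of the control dOLCs and 282, 544 and 601 CPM in MOL5/6a, MOL5/6c and MOL5/6d, which places it near MOL5/6a. Its ratio to all 3 was -1.11 (-1.28 to -0.95) in the control dOLCs, -0.47 (-0.94 to -0.01) in the control vOLCs and -0.79 (-1.93 to 0.14) in the ectopic vOLCs. Ndufab1, the acyl carrier protein of complex I, had a UMI in 8.89% of MOL5/6b cells and 15.1% of the others in the control dOLCs. Fkbp3, a prolyl isomerase, had 58.6 CPM in MOL5/6b of the control dOLCs and 93.1, 95.9 and 119.5 CPM in MOL5/6a, MOL5/6c and MOL5/6d. These 2 genes, Gm9843 and Anapc13 passed the filter through the other MOL5/6 cells alone (Fkbp3 had a UMI in 5.44% of MOL5/6b cells and 10.1% of the others) and so had to be lower in MOL5/6b, and the direction against each subcluster and in the control vOLCs was part of the choice. Gm9843 bears only a gene model name, and its reads may be shared with a near-identical copy, so its value is uncertain.

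**Figure D3:**
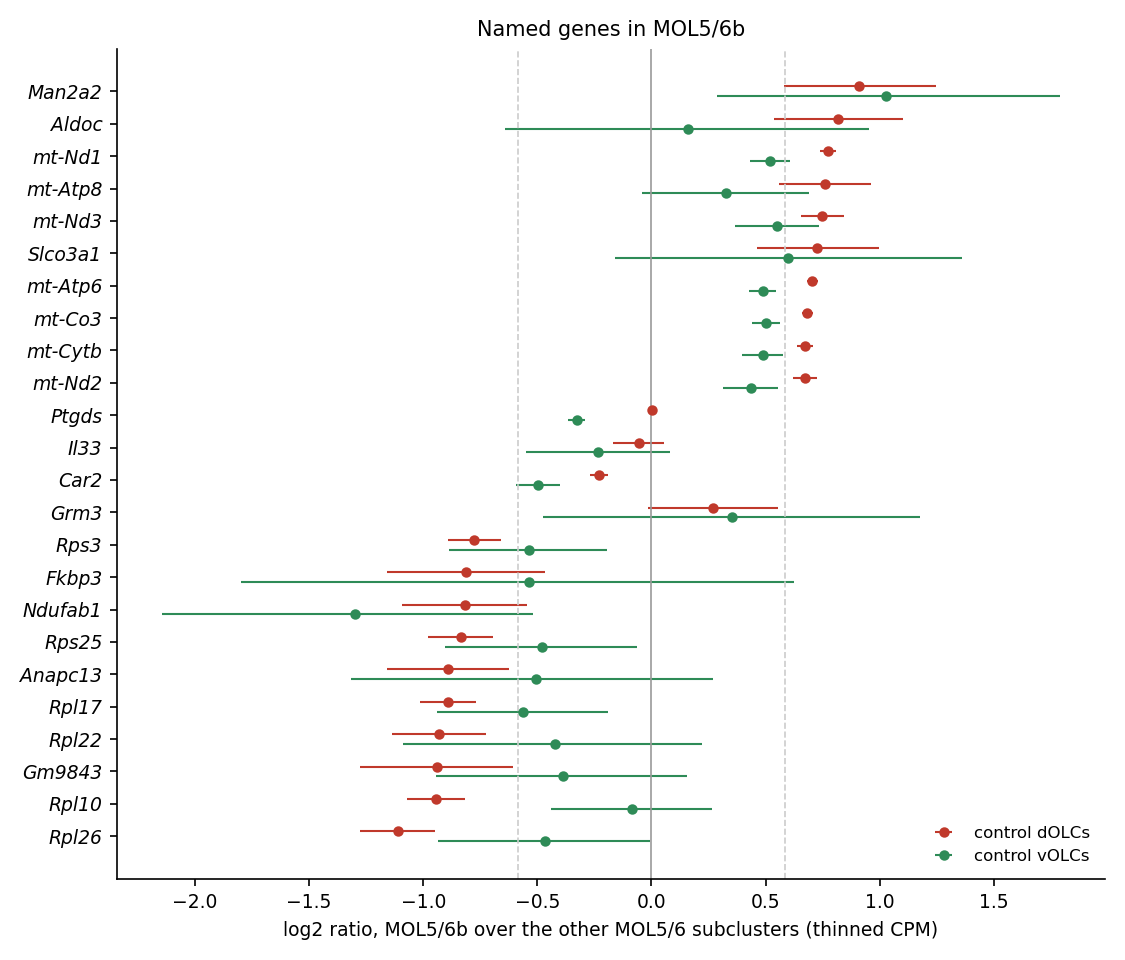
Log2 ratio of MOL5/6b to the other MOL5/6 cells at equal depth for the genes named by rule and the 4 class markers, in control dOLCs (red) and control vOLCs (green), with 95% counting intervals and dashed lines at 1.5-fold. In the control dOLCs the class markers lie between the highest genes above and a mostly ribosomal group below, and in the control vOLCs Car2 (-0.50) and Ptgds (-0.33) lie below 0.

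The summed share of myelin genes was lower in MOL5/6b than in MOL5/6a. The 20 genes of the list all passed the filter and took 7.47% of UMIs in MOL5/6b of the control dOLCs, 9.33% in MOL5/6a, 7.27% in MOL5/6c and 7.91% in MOL5/6d. Against MOL5/6a 4 genes were at least 1.5-fold lower and 2 higher (median -0.31), where 9.81% of all genes were lower and 10.6% higher, and the medians over MOL5/6c and MOL5/6d were 0.12 and -0.07. The tetraspanin Cd9 had 1561 CPM in MOL5/6b and 2706, 904 and 1366 CPM in MOL5/6a, MOL5/6c and MOL5/6d. The tight junction protein Cldn11 had 4621 CPM in MOL5/6b and 7207, 4129 and 5072 CPM in MOL5/6a, MOL5/6c and MOL5/6d. Both were lower than in MOL5/6a, and the 2 genes that were higher are not named here. The summed share of MOL5/6b was below that of MOL5/6a in the other libraries too, where the list took 7.94% and 8.88% in the control vOLCs and 7.56% and 9.33% in the ectopic vOLCs. Gene by gene the order was less clear there, with 3 higher and 1 lower over MOL5/6a in the control vOLCs (median -0.17), where 10.5% and 8.86% of all genes were higher and lower, and 3 higher and 2 lower in the ectopic vOLCs (median -0.25), where 19.3% and 19.9% were.

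Some genes of axon contact, among them Nfasc and Cntn2, and the channel gene Hcn2 were higher in MOL5/6b than in MOL5/6a and MOL5/6d. Nfasc, the neurofascin of the paranode, had 460.2 CPM in MOL5/6b of the control dOLCs, 195 in MOL5/6a and 456 in MOL5/6c, with log2 ratios of 1.24 (0.87 to 1.62) over MOL5/6a and 0.80 (0.55 to 1.06) over MOL5/6d. Cntn2, a contactin of the juxtaparanode, had 789 CPM in MOL5/6b and 387, 693 and 415 CPM in MOL5/6a, MOL5/6c and MOL5/6d. In the list of axoglial adhesion and paranode genes 14 of 20 passed, with a median of 0.29 over MOL5/6a (3 higher, 0 lower), 0.45 over MOL5/6d (3 higher, 0 lower) and 0.09 over MOL5/6c (2 higher, 0 lower). Of all genes tested 10.6% were higher over MOL5/6a, 9.46% over MOL5/6d and 2.94% over MOL5/6c. With 14 genes, the counts of the list are too small to set apart from these shares. The pacemaker channel Hcn2 had 1095 CPM in MOL5/6b and 523, 858 and 554 CPM in MOL5/6a, MOL5/6c and MOL5/6d. It was also higher in the control vOLCs, with a ratio to the other MOL5/6 cells of 0.80 (0.56 to 1.05).

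Several abundant secreted genes stood in MOL5/6b between MOL5/6a and MOL5/6c. Apod, a lipid-carrying lipocalin, had 4274 CPM in MOL5/6b of the control dOLCs and 5877, 2709 and 2880.5 CPM in MOL5/6a, MOL5/6c and MOL5/6d. Trf, the iron carrier transferrin, had 8565 CPM and 10562, 5143 and 6311 CPM in MOL5/6a, MOL5/6c and MOL5/6d, and Apoe, the main apolipoprotein of the brain, 6404 CPM and 7006, 3523 and 4661 CPM in MOL5/6a, MOL5/6c and MOL5/6d. Over the list of secreted genes the median was -0.30 against MOL5/6a and 0.45 against MOL5/6c, where 5 of 10 genes were at least 1.5-fold higher and 0 lower, beside 2.94% and 14% of all genes. The lysosome list gave -0.41 against MOL5/6a, with 4 of 13 genes lower and 0 higher beside 9.81% and 10.6% of all genes, and 0.37 against MOL5/6c, with 1 of 13 higher and 1 lower. Its median over MOL5/6a in the control vOLCs was -0.07, with 1 higher and 1 lower of 13, beside 10.5% and 8.86% of all genes. Lamp1, a lysosomal membrane protein, had 1649.7 CPM in MOL5/6b and 2505, 1194 and 1641 CPM in MOL5/6a, MOL5/6c and MOL5/6d. Fth1, the ferritin heavy chain, had another order, with 12713 CPM in MOL5/6b and 12649, 19056 and 22650.3 CPM in MOL5/6a, MOL5/6c and MOL5/6d. Of the iron handling list 4 genes passed, with medians of 0.00, -0.11 and -0.38 over MOL5/6a, MOL5/6c and MOL5/6d. Over MOL5/6c 1 of them was higher (2.94% of all genes), and over MOL5/6d 1 was lower (25.3% of all genes).

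Most cholesterol synthesis genes that passed were lower in MOL5/6b than in MOL5/6a of the control dOLCs. Of the cholesterol synthesis list 8 of 22 genes passed against MOL5/6a, with 5 at least 1.5-fold lower, 0 higher and a median of -0.70, beside 9.81% of all genes lower and 10.6% higher. Against MOL5/6c and against MOL5/6d 5 genes passed. Those that passed against MOL5/6a only did so through MOL5/6a alone and had to be lower in MOL5/6b, which weighs on this count and median. Against MOL5/6c the median over 5 genes was 0.34, with 1 higher and 0 lower beside 2.94% and 14% of all genes. It was -0.93 over 2 genes in the control vOLCs, 0 of them higher and 1 lower beside 14.2% and 18.1%. Msmo1, an oxidase of sterol demethylation, had 164 CPM in MOL5/6b of the control dOLCs and 303, 126 and 116 CPM in MOL5/6a, MOL5/6c and MOL5/6d. Over MOL5/6a the median in the control vOLCs was -0.19, with 1 of 6 genes lower, beside 8.86% of all genes. Fatty acid genes gave a median of 0.01 over MOL5/6a in the control dOLCs, with 2 of 11 higher and 2 lower, near the 10.6% and 9.81% of all genes. Fasn, the fatty acid synthase, had 196 CPM in MOL5/6b and 72.1 in MOL5/6a, with log2 ratios of 1.44 over MOL5/6a, -0.33 over MOL5/6c and 0.59 over MOL5/6d, and Scd2, a stearoyl desaturase, 4162 CPM and 2571, 4693 and 2587 CPM in MOL5/6a, MOL5/6c and MOL5/6d. The elongase Elovl5 lay the other way, with 204 CPM in MOL5/6b and 318 in MOL5/6a. The ceramide synthase Cers2 had 669 CPM in MOL5/6b and 1123 in MOL5/6a.

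**Figure D4:**
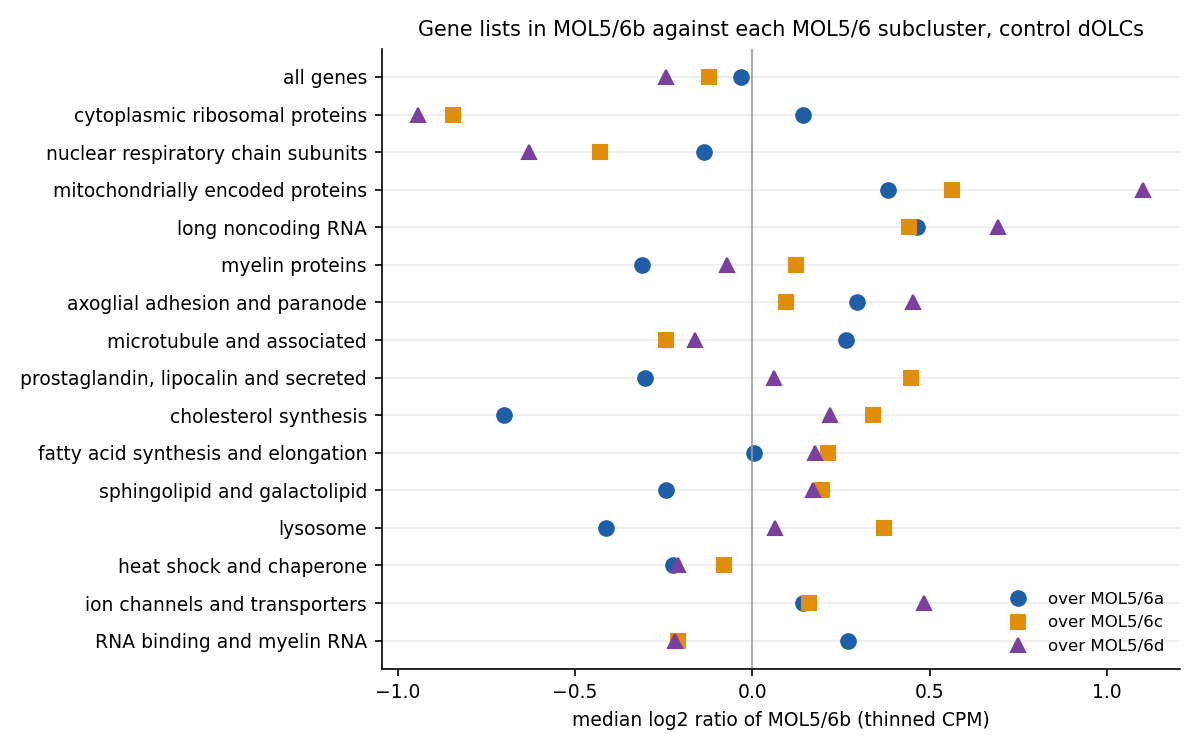
Median log2 ratio of MOL5/6b over MOL5/6a (circles), MOL5/6c (squares) and MOL5/6d (triangles) for gene lists in the control dOLCs at equal depth, over the members that passed the filter. The ribosomal list is at 0.14 over MOL5/6a and at -0.84 and -0.94 over the others, and the mitochondrial list is at 0.38, 0.56 and 1.10.

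Lineage transcription factors were few among the genes that passed. Of 24 lineage transcription factors 9 passed in the control dOLCs, with a median of 0.04 and 0 genes past 1.5-fold against the other MOL5/6 cells together, where 1.33% of all genes tested were higher and 11.4% lower, so 9 genes are too few to set apart from the rest. Over MOL5/6a 1 of 9 was higher, Zfp536, with 182 CPM in MOL5/6b and 96.1 in MOL5/6a, beside 10.6% of all genes. In the control vOLCs 3 of 9 were higher over MOL5/6a and 0 lower, where 10.5% of all genes were higher. Qk, an RNA-binding protein that governs splicing of myelin transcripts, had 1419.6 CPM in MOL5/6b and 718, 1747 and 1035 CPM in MOL5/6a, MOL5/6c and MOL5/6d. Among noncoding RNAs Malat1, a nuclear transcript, had 112961 CPM in MOL5/6b and 105462, 83170.3 and 63409 CPM in MOL5/6a, MOL5/6c and MOL5/6d, and Neat1, the scaffold of paraspeckles, 534 CPM and 387, 378 and 330.4 CPM in MOL5/6a, MOL5/6c and MOL5/6d. Both were thus highest in MOL5/6b among the 4 subclusters of the control dOLCs. This held in the control vOLCs for Neat1, with 674 CPM in MOL5/6b and 481 in MOL5/6a, but not for Malat1, with 86695 and 88017 CPM.

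Ratios were higher for longer transcripts. Over 1461 genes of the control dOLCs the log2 ratio of MOL5/6b to the other MOL5/6 cells had a Spearman coefficient of 0.50 with the median length of the gene's protein-coding transcripts in GENCODE, a description across genes of the same pools, which are not independent. In 4 classes of like size by length, with median lengths of 664.5, 1110, 1972 and 3998.5 bases, the median ratio was -0.36, -0.25, -0.07 and 0.13. Without the ribosomal and mitochondrial genes the coefficient was 0.48. It was 0.40 in the control vOLCs and 0.35 in the ectopic vOLCs. Against single subclusters of the control dOLCs it was 0.25 for MOL5/6a, 0.28 for MOL5/6c and 0.54 for MOL5/6d. Ribosomal and nuclear respiratory chain transcripts are short and those of Nfasc and Fasn long, and the part of length in the gene groups above was not tested.

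Within MOL5/6b the counts of a few abundant transcripts were the most spread between cells. By the Fano factor (variance over mean) at equal depth, the 10 most variable of 1434 genes in the control dOLCs included Malat1, Ptgds, Apoe, Trf, mt-Atp6, Apod, mt-Co3, mt-Co1 and Car2. Malat1 reached 15.1 and Ptgds 7.10, against a median of 1.02, near the value of 1 that counting alone gives. Of these 10 genes, 9 were among the 10 highest in the control vOLCs and 5 in the ectopic vOLCs, where Ptgds had 9.20 and 8.19. The Fano factor rises with the mean, so the most abundant genes come first in this order. It was not particular to MOL5/6b, since Malat1 and Ptgds were also the highest and second highest in MOL5/6a, MOL5/6c and MOL5/6d of the control dOLCs, where Ptgds had 9.74, 7.12 and 6.68.

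MOL5/6b cells were mostly surrounded by their own kind in the control dOLCs and by MOL5/6a in the ectopic vOLCs. Among the 30 nearest neighbours of a MOL5/6b cell within its library (50 principal components of thinned counts), 77.5% were MOL5/6b in the control dOLCs, 5.62% MOL1, 5.44% MOL2a and 5.00% MOL5/6a, and 94.0% of the cells had a majority of their own. In the control vOLCs 53.8% were MOL5/6b and 27.1% MOL5/6a. In the ectopic vOLCs 13.4% were MOL5/6b and 76.1% MOL5/6a, and 0 of 42 cells had a majority of their own. The number of MOL5/6b cells limits this share, which was 8.18 times their share of the ectopic cells, 2.31 times in the control dOLCs and 2.11 times in the control vOLCs. In summed profiles of clusters with at least 40 cells, drawn to 35000 UMIs and compared over 1021 genes, ectopic MOL5/6b had a Pearson coefficient of 0.880 with MOL5/6b of the control vOLCs, 0.879 with that of the control dOLCs, 0.872 with MOL1 and 0.868 with MOL5/6a of the control dOLCs, 0.867 with MOL5/6a of its own library and 0.809 with MOL5/6d of its own library. MOL5/6b of the control dOLCs had 0.884 with that of the control vOLCs and 0.881 with MOL1 of its own library. These are coefficients across genes at low depth, and they lie close together, so MOL5/6b of another library was nearly matched by MOL1 of the control dOLCs.

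Between the 2 control libraries the MOL5/6b cells were much alike in level. At full depth 4667 genes passed the filter, of which 4.31% were at least 1.5-fold higher in the control vOLCs than in the control dOLCs and 0.943% lower. The filter counts cells with a UMI, and the control vOLC cells were deeper, with a median of 3970.5 UMIs against 2844. With cells thinned to 1000 UMIs, 84 genes were higher and 28 lower. The median log2 ratio at full depth was 0.04. Of 20 myelin genes 0 were past 1.5-fold (median -0.02), and the ribosomal median was -0.05. Ptgds had 30932 CPM in the dOLCs and 35916 in the vOLCs, a ratio of 0.22 (0.20 to 0.23), and Il33 678 and 552 CPM, a ratio of -0.30 (-0.43 to -0.16). The 10 lowest in the vOLCs were Tcf3, Gpr37l1, Serpine2, As3mt, C1ql1, Trmt13, Nbeal1, Cyb561d2, 9530059O14Rik and Asb8. Gpr37l1, a receptor of astrocytes, had 270 UMIs (45.8 CPM) in the dOLCs and 20 UMIs (20.8 CPM) in the vOLCs. Of these 10 genes 8 passed the filter through the dOLCs alone, so their ratio had to be low. Serpine2 and C1ql1, both on the OPC list, had 55.4 and 56.4 CPM in the dOLCs and 27.1 and 30.2 CPM in the vOLCs. Of 4 OPC genes that passed, 3 were lower (median -0.79). At equal depth the 10 OPC genes summed to 404 CPM in MOL5/6b of the dOLCs and 258 in that of the vOLCs, and the other MOL5/6 subclusters of the dOLCs had 339, 402 and 334 CPM, so all 4 subclusters of the dOLCs lay above MOL5/6b of the vOLCs. The part of RNA from other cells in this difference was not tested.

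The 10 highest in the vOLCs were Gm10116, RP23-407N2.2, Rps18-ps3, Gm10020, Cyb5r1, Gm10073, Hist2h2aa1, Pgk1, Gm8797 and Rpl13-ps3. Rps18-ps3 and Rpl13-ps3 are ribosomal pseudogenes by name and others bear only a gene model name, so reads may be split between near-identical loci and their values are uncertain. Gm10116 had 112 UMIs (19.0 CPM) in the dOLCs and 89 UMIs (92.7 CPM) in the vOLCs. Pgk1, the phosphoglycerate kinase of glycolysis, had 21.7 CPM in the dOLCs, 82.3 in the vOLCs and 21.6 in the ectopic vOLCs, so it was highest in the control vOLCs. Of these 10 genes 9 passed the filter through the vOLCs alone (Gm10116 had a UMI in 31.4% of the vOLC cells and 5.55% of the dOLC cells, Pgk1 in 27.1% and 6.37%). Such genes had to differ, and their levels are a description of the choice. Of the ribosomal protein genes themselves 2 of 83 were higher and 0 lower.

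The 42 ectopic cells held 138892 UMIs in all, against 5899764 in MOL5/6b of the control dOLCs, so small differences were not detectable at this depth. Of 4056 genes 8.51% were at least 1.5-fold higher than in the control dOLCs and 19.2% lower, and of 3041 genes 4.11% were higher and 21.3% lower than in the control vOLCs, many from a few UMIs. Class and myelin genes stood near the control levels. Car2 had 4867 CPM in the ectopic cells, 5207 in the control dOLCs and 5864 in the control vOLCs. Mbp had 5039.9, 5550.1 and 5365 CPM in the same order. Of 20 myelin genes 0 were past 1.5-fold against the dOLCs, with a median of -0.08 where that of all genes was -0.09. Ptgds stood at 38799.9 CPM, a ratio of 0.33 (0.29 to 0.37) to the dOLCs. The mitochondrially encoded list had a median of 0.25 and the ribosomal list of -0.12.

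The 10 genes named as lowest in the ectopic MOL5/6b cells were at 0 UMIs there and present in both control libraries. Genes at 0 UMIs tie in the order of ratios, and ties were taken by gene name. For a gene chosen beforehand, a count of 0 allows a level of up to 21.6 CPM (3 counts over the group, a one-sided limit). Fam46a had 60.2 CPM in the control dOLCs and 43.8 in the control vOLCs, and this limit lies 2.79-fold below its dOLC level. Dlk2, a homologue of Notch pathway ligands, had 46.1 and 53.1 CPM, with the limit 2.13-fold below the dOLCs. Eya2, a transcriptional coactivator, had 239 UMIs (40.5 CPM) in the dOLCs and 34 UMIs (35.4 CPM) in the vOLCs, with the limit 1.88-fold below the dOLCs. The others were Gemin7, Gm10260, Irf2bpl, March7, Mga, Msi2 and Pick1, with the limit 1.66-fold to 2.30-fold below. At the level of the dOLCs the 10 genes would have given 4.97 to 8.36 UMIs each. All 10 passed the filter through the control cells and were chosen as the lowest of 4056 genes. Genes picked for a count of 0 can be at 0 by counting error, so the limits are a description and do not bound the levels of these genes. Tppp, a tubulin polymerisation protein of oligodendrocytes, had 368 CPM in the control dOLCs, 434 in the control vOLCs and 144 in the ectopic vOLCs, a ratio of -1.35 (-2.07 to -0.72) to the dOLCs. Neat1 had 522, 579 and 266 CPM in the same order, a ratio of -0.97 (-1.48 to -0.51). Both were lower in the ectopic cells than in either control library. Tubb3, a neuronal tubulin, had 36, 11 and 4 UMIs in the control dOLCs, control vOLCs and ectopic vOLCs, or 6.10, 11.5 and 28.8 CPM, a ratio of 2.24 (0.29 to 3.72) for the ectopic vOLCs over the dOLCs and of 1.33 (-0.78 to 3.08) over the control vOLCs. It did not pass the filter.

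The highest in the ectopic cells were Crtc3, Hbs1l, Itih3, Bnip2, Ppm1a, Gsr, Usp8, Poglut1, Tssc1 and 2410002F23Rik, each from 8 to 15 UMIs. Crtc3, a coactivator of CREB, had 10 UMIs (72.0 CPM), against 21.0 CPM in the control dOLCs and 29.2 in the control vOLCs. Ppm1a, a protein phosphatase, had 13 UMIs (93.6 CPM), against 35.8 and 41.7 CPM, and the glutathione reductase Gsr 11 UMIs (79.2 CPM), against 30.5 and 46.9 CPM. Of these 10 genes 7, among them Crtc3, Ppm1a and Gsr, passed the filter against the dOLCs through the ectopic cells alone and had to differ, so their levels describe the choice. Crtc3 had a UMI in 16.7% of the ectopic cells and 6.06% of the dOLC cells, and Gsr in 23.8% and 8.63%. None of the 10 is on a gene list described above.

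**Figure D5:**
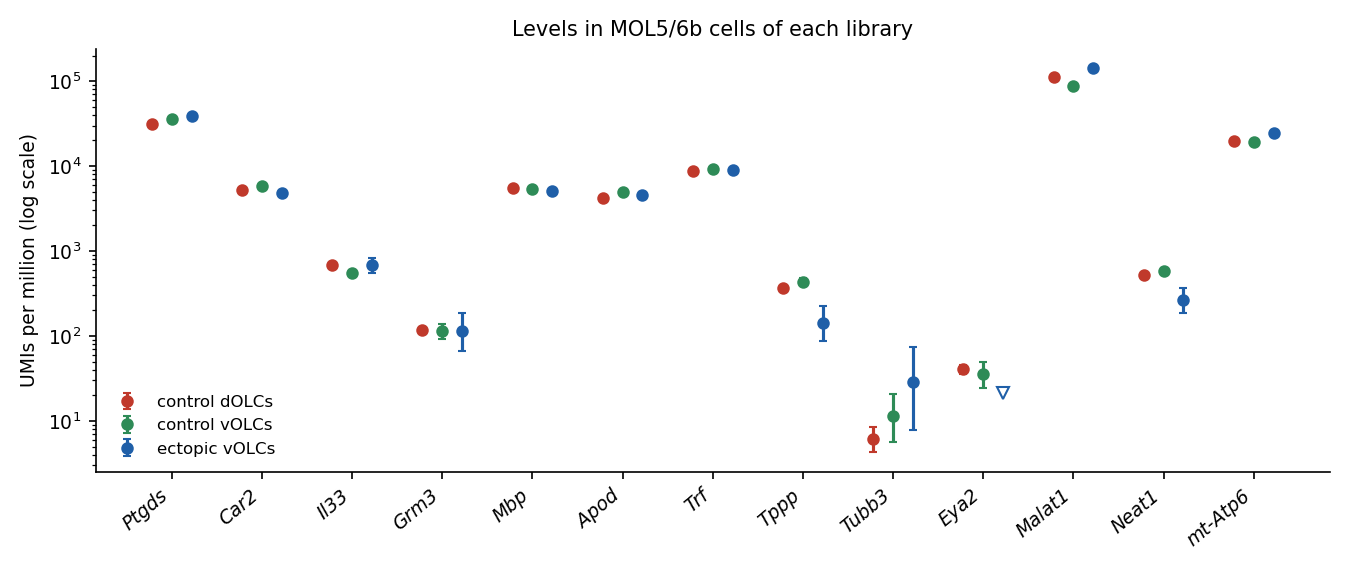
Level of chosen genes in the MOL5/6b cells of each library at full depth, in CPM on a log scale, with 95% Poisson intervals. The triangle marks Eya2 in the ectopic vOLCs at its limit of 21.6 CPM, since it had 0 UMIs there, and Tppp and Neat1 lie lower in the ectopic vOLCs than in both control libraries.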

How the data were processed

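Cells of the P90 cortex were sorted by reporter colour and sequenced as 3 droplet libraries. The authors deposited raw UMI counts per gene and barcode, made with Cell Ranger (version 2.1.1 in the submitters' processing notes, which also name mm10), and an annotation with each kept cell's cluster and the mitochondrial percent of its counts, computed by the authors in Seurat (versions 3 and 4.0 in those notes). The authors filtered cells by genes detected and mitochondrial share, clustered them after sctransform by the Leiden method and named 11 clusters by label transfer. The count data hold 10081 barcodes, of which the authors kept 9291, with 23078181 UMIs in the control dOLCs, 4846391 in the control vOLCs and 14293675 in the ectopic vOLCs. The other 4 samples of the series, from P0, are not analysed here.

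Counts were joined to clusters by barcode. For comparisons within a library each cell was thinned to 1000 UMIs (the smallest kept cell held 1257, so none was lost), summed by subcluster and scaled to CPM. Genes needed 50 UMIs over both pools and a UMI in 10% of the cells of one. Between libraries full depth was used, with the same filter and at least 3 UMIs expected in the smaller pool. With 1 library per condition no test was run. Ratios carry exact conditional binomial intervals, CPM exact Poisson intervals and shares exact Clopper-Pearson intervals, all at 95%, and a gene past 1.5-fold is counted as higher or lower. Fano factors used genes with a mean of at least 0.1 thinned UMIs. Nearest neighbours used genes with 50 thinned UMIs in the library. Doublets were not removed: Scrublet called 1 of 6192 barcodes in the control dOLCs, too few to be a working call, 17 of 1039 in the control vOLCs (4 of them kept MOL5/6b cells) and 3 of 2850 in the ectopic vOLCs. The 6% of barcodes with the highest scores in each library, left out as an alternative, held 8.01%, 10.2% and 9.52% of the MOL5/6b cells and 5.67%, 6.27% and 5.00% of all kept cells, in the same order.

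Named genes were the 4 markers in the class label, the 10 highest and 10 lowest ratios within the control dOLCs that kept their direction against each subcluster and in the control vOLCs, the 10 highest and lowest between libraries whose interval left out 0 (for the ectopic vOLCs with the same direction against both controls), the 10 highest Fano factors, and up to 2 members at each end of a described list. Other genes named were chosen after their values were seen, and some genes are not reported here. The members and all gene lists were chosen with earlier results of these data known. Alternatives used edgeR 4.0.16 TMM factors and DESeq2 1.42.0 size factors on the summed counts, as scaling only. Scripts were tested on simulated data. Python 3.11.15, scipy 1.17.1, scikit-learn 1.9.0, scanpy 1.11.5 and R 4.3.3 were used.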

Additional observations from a re-analysis of the deposited data

Results flagged for a closer look

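The ratio of MOL5/6b to the other MOL5/6 cells for Ptgds pointed in opposite directions in the 2 ventrally derived libraries, with both counting intervals away from 0. It was -0.33 (-0.37 to -0.29) on the log2 scale in the control vOLCs and 0.077 (0.0049 to 0.15) in the ectopic vOLCs. With 1 library each, this difference was not tested. Against single subclusters the order was alike in both, since Ptgds in MOL5/6b, at 35377 CPM in the control vOLCs and 38476 CPM in the ectopic vOLCs, was below MOL5/6a (48717 and 40404 CPM) and above MOL5/6c (30208 and 24698 CPM). Only MOL5/6d changed sides, at 36771 and 33142 CPM. The mix of the other MOL5/6 cells also differed between these libraries, with 237 MOL5/6a and 35 MOL5/6d cells in the control vOLCs and 900 and 837 in the ectopic vOLCs.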

How the results depend on the processing

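No paired analysis was possible because no condition has more than 1 library. Values run in the order control dOLCs, control vOLCs, ectopic vOLCs. The share of MOL5/6b in percent was 39.5, 29.5, 1.89 without OPCs, 51.5, 42.1, 2.28 of MOL5/6 cells, 27.4, 20.7, 0.623 under a 10% mitochondrial limit and 46.7, 66.7, 2.95 of MOL5/6 cells of 3000 to 5000 UMIs, a range chosen after seeing the data. Genes at least 1.5-fold higher and lower than in the other MOL5/6 cells, 20 and 171, 132 and 146, 284 and 422 as reported, were 44 and 298, 549 and 260, 835 and 1385 at full depth, 2789 and 2262, 3142 and 2696, 2471 and 7578 without the filter, 26 and 151, 171 and 96, 325 and 357 with TMM factors, 6 and 153, 89 and 105, 564 and 546 under the 10% limit and 14 and 135, 36 and 36, 297 and 350 in cells of 3000 to 5000 UMIs. The summed ribosomal ratio (log2), -0.68, -0.28, -0.59 as reported, was -0.70, -0.33, -0.61 at full depth, -0.65, -0.21, -0.51 with TMM factors, -0.65, -0.22, -0.45 with size factors, -0.69, -0.25, -0.69 under the 10% limit and -0.67, -0.11, -0.054 in cells of 3000 to 5000 UMIs. The summed mitochondrial ratio, 0.68, 0.49, 0.63 as reported, was 0.72, 0.47, 0.70 at full depth, 0.70, 0.56, 0.71 with TMM factors, 0.70, 0.56, 0.78 with size factors, 0.53, 0.29, 0.38 under the 10% limit, 0.40, 0.20, 0.19 in cells of 3000 to 5000 UMIs and 0.69, 0.51, 0.64 without the 6% highest Scrublet scores. In that depth range the ectopic ribosomal ratio was near 0, from 20 MOL5/6b cells, and the other ectopic MOL5/6 cells were 587 of MOL5/6a, 24 of MOL5/6c and 48 of MOL5/6d. By subcluster the ribosomal share there was 3.63% in MOL5/6b, 3.29% in MOL5/6a, 7.0% in MOL5/6c and 8.13% in MOL5/6d. Between libraries, genes higher and lower for control vOLCs over control dOLCs, ectopic vOLCs over control dOLCs and ectopic over control vOLCs, 201 and 44, 345 and 779, 125 and 649 as reported, were 84 and 28, 174 and 323, 34 and 149 with cells thinned to 1000 UMIs, 2176 and 3816, 1883 and 7643, 1962 and 5532 without the filter, 187 and 46, 493 and 626, 209 and 518 with TMM factors and 187 and 46, 531 and 600, 244 and 498 with size factors. The cause of these changes was not tested, except that no filter adds genes of few UMIs. The scaling factors moved the median of all genes by over 0.1 (log2) for ectopic vOLCs, by 0.14 within the library by size factors and by 0.10 and 0.13 against the control dOLCs by TMM and size factors. The share of neighbours that were MOL5/6b and the genes shared among the most variable stayed within 1.5 times. Of 152 alternative values of the comparisons 83 stayed and 69 moved. Of 644 values of single genes under the alternatives, 582 stayed within the counting interval of the reported value, 62 lay outside it and 0 reversed a gene past 1.5-fold. By construction, leaving out the filter changes no single-gene value. Within a library, averaging CPM cell by cell likewise equals the value at equal depth. Such values are counted among those that stayed and lend them no support. For the genes at 0 UMIs in the ectopic cells, thinning to 1000 UMIs gave no limit below the level of the control dOLCs. The 42 ectopic cells limit every ectopic value, and with 1 library per condition differences between libraries cannot be told apart from differences between preparations.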
